A study of Rattus norvegicus with 9 samples.

Results

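Potassium channel genes of the rat brain are described here: 75 genes of the 114601 loci in the deposited count table. They are the loci that overlap, on the same strand, an annotated gene whose name starts with Kcn, where the locus held at least 10 expected counts (estimated read counts) in at least 3 of the 9 libraries. Of 82 such names, 7 fell under the count rule (Kcne4, Kcnk6, Kcnk7, Kcnmb1, Kcnq1, Kcnu1 and Kcnv2), and 68 of the 75 genes kept reached 10 counts in all 9 libraries. At the edge of the rule, Kcnn4 reached 10 counts in 3 libraries and Kcne5 and Kcnj15 in 4. For each of these genes, all of those libraries came from mutant rats. Kcnk6 and Kcnq1 reached 10 counts in 2 libraries and Kcne4 in 1. The loci of Kcnk4 and Kcnrg also carry the names Tex40 and Trim13, so their counts may include those genes.

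The libraries hold ribosomal-RNA-depleted RNA from the brains, taken whole, of 9 untreated male rats that had never been given alcohol. The 3 wild types were Wistar animals from Charles River, and the 3 heterozygous and 3 homozygous rats carried a CRISPR/Cas9 deletion of 618 bp in Lrap, a long non-coding RNA gene, on 1 or both alleles. No label calls the Wistar controls siblings of the mutant rats, which means that breeding line and genotype cannot be told apart. The title of the series ties Lrap to brain gene expression and alcohol consumption.

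Potassium channels let potassium ions leave or enter a cell and so set its resting potential, end each action potential and limit repeated firing. Voltage-gated Kv channels open on depolarisation, BK and SK channels also or only answer calcium, inward rectifiers pass current best near rest, and two-pore channels carry a background leak. BK channels, SK channels and the G-protein-gated inward rectifiers (GIRK) are known as targets of ethanol, which is why they are given separately below. None of the 75 genes lies on chromosome 12, which holds Lrap.

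Totals ran from 27489383 to 46975919 expected counts per library, and mitochondrial transcripts took 14.8% to 40.4% of them, the highest share being that of wild-type rat 2. At the Lrap locus the assembled isoform that lacks the gap of the deletion length made up 60.3% ± 4.84 of its output in wild types, 40.4% ± 3.09 in heterozygotes and 16.6% ± 6.10 in homozygotes (SD, n = 3 each). Neuronal, astrocyte and oligodendrocyte markers were present in all libraries. Markers of cerebellar granule cells were not even across the rats: the summed level of 4 such genes ran from 10.3 to 300.4 CPM (counts scaled to library size by TMM, edgeR's trimmed mean of M-values) in wild types, from 82.5 to 143.8 in heterozygotes and from 4.66 to 232.1 in homozygotes. Pineal markers were uneven too: Tph1 reached 90.9 and 92.8 CPM in rats 2 and 3 of the heterozygotes, against at most 6.62 in the other 7 rats. In bulk tissue, fewer cells of a type and less RNA per cell cannot be told apart.

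Levels were compared between genes as TPM, which divides counts by transcript length. The auxiliary subunit gene Kcnab2, whose product is a beta subunit of Kv1 channels, was highest at 29.0 TPM ± 6.94 (SD, n = 9), above 97.0% of the 20766 annotated loci with any signal. Among the genes next in order were Kcnma1, the pore of the BK channel, at 11.3 ± 3.48, and the axonal Kv1 gene Kcna1 at 11.1 ± 4.23. The order of these 2 is not resolved, since they lie closer together than their spread. In all, 4 genes passed 10 TPM, 46 lay from 1 to 10 TPM, and 25 lay under 1 TPM. The median over the 75 genes was 2.16 TPM.

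**Figure D1:**
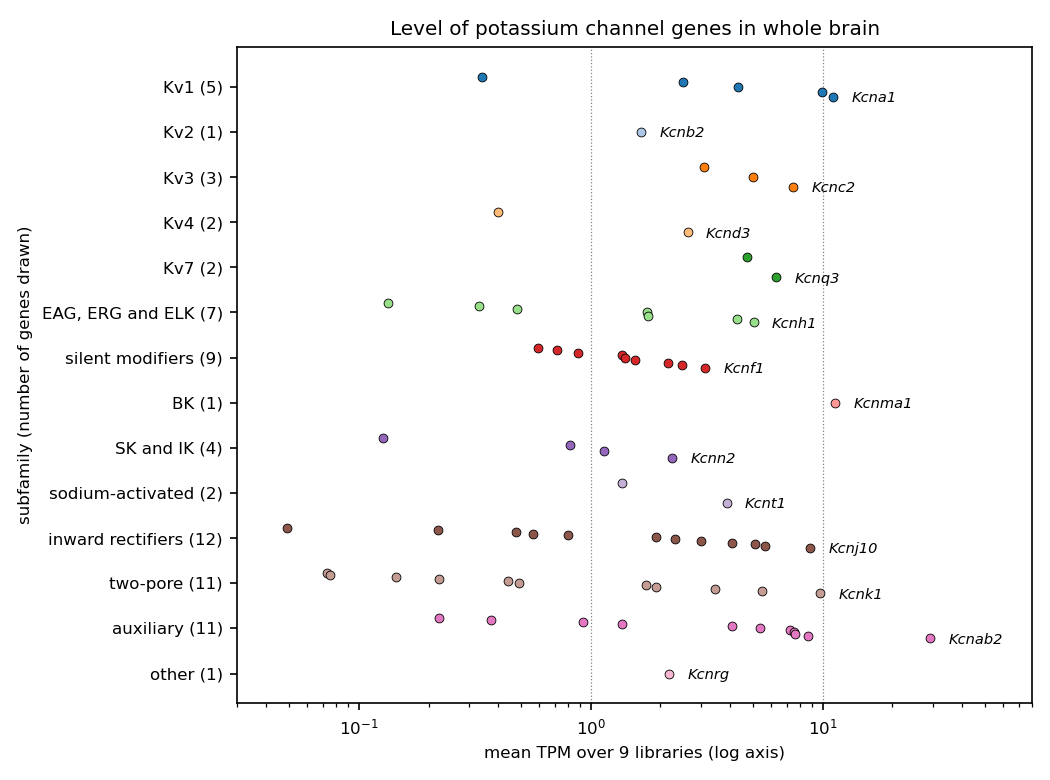
Mean TPM over the 9 libraries on a log axis, 1 point per gene drawn, in 14 subfamilies with the highest gene drawn in each named and dotted lines at 1 and 10 TPM. Kcnab2 stands apart at 29.0 TPM, and Kcnma1 and Kcna1 lie just above 10 TPM.

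A small number of genes held most of the signal. The 10 highest genes held 43.9% of the summed TPM of the set and the 20 highest held 66.7%. The ranking was much the same in every brain: Spearman's rho of the 75 levels between libraries ran from 0.916 to 0.995 over 36 pairs, as a description across genes that share each library's scaling. The summed TPM itself ran from 205.0 to 394.0.

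The Kv1 genes (5 genes, 10.5% ± 0.995 of the summed TPM, SD over 9 libraries) were led by Kcna1 and by Kcna2 at 9.93 TPM, both known from the axon beside the node and from its terminals. The Kv3 genes (4 genes, 8.66% ± 1.56), whose fast channels allow high firing rates, included Kcnc2 at 7.45 TPM, Kcnc1 at 5.03 and Kcnc4 at 3.07. The Kv7 genes (4 genes, 8.96% ± 1.09) included Kcnq3 at 6.30 and Kcnq5 at 4.73, subunits of the M current that holds neurons below threshold. Of the Kv4 genes measured, which do not include Kcnd2, Kcnd3 was the higher at 2.62.

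Among the EAG, ERG and ELK genes (7 genes, 5.27% ± 0.6004), Kcnh1 at 5.04 TPM and Kcnh3 at 4.28 led, and 3 of the 7 were among the 20 lowest genes. The silent modifiers (9 genes, 5.41% ± 0.382), subunits that form no channel alone but change Kv2 channels, kept together between Kcng3 at 0.592 and Kcnf1 at 3.13 TPM. None of them was among the 20 highest, and 1 was among the 20 lowest.

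Of the calcium-activated genes, Kcnma1 took 4.28% ± 0.679 of the summed TPM by itself, while the 4 SK and IK genes took 1.65% ± 0.201 together. Kcnn2, the SK2 channel, stood at 2.25 TPM, Kcnn3 at 1.14, Kcnn1 at 0.816 and Kcnn4, the intermediate-conductance channel known mainly outside neurons, at 0.128. The sodium-activated channel gene Kcnt1 stood at 3.86 and Kcnt2 at 1.36. The BK beta subunit of neurons, Kcnmb4, stood at 5.40 against 0.372 for Kcnmb2.

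The 12 inward rectifier genes held 12.5% ± 0.592. Kcnj10, the Kir4.1 channel of astrocytes that clears potassium, was highest at 8.82 TPM, and its partner Kcnj16 stood at 2.30. The neuronal GIRK subunits Kcnj9 at 5.64, Kcnj3 at 4.06 and Kcnj6 at 3.00 were well above Kcnj5 at 0.219, the GIRK subunit known from the heart. Counts of Kcnj9 are less sure than the others, because loci on the opposite strand, among them Igsf8, held 56.3% of its count and the sources used here do not give whether counting used the strand. The ATP-sensitive pore Kcnj11, known from neurons, stood at 1.91 and Kcnj8, known from pericytes, at 0.479.

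The 11 two-pore genes held 9.01% ± 0.334 and ran from Kcnk5 at 0.0733 to Kcnk1 at 9.74 TPM. Kcnk2 (TREK1) at 5.46 and Kcnk9 (TASK3) at 3.43 followed Kcnk1, and 6 of the 11 were among the 20 lowest genes. The 11 auxiliary genes held 27.5% ± 1.31. Kcnab1, another beta subunit of Kv1, stood at 7.62 TPM. The auxiliary genes also hold the KChIP genes, whose calcium-binding products ride on Kv4 channels: Kcnip3 at 8.69, Kcnip2 at 7.54, Kcnip4 at 7.24 and Kcnip1 at 4.08 TPM. Each of these 4 stood above Kcnd3, the highest Kv4 gene among the 75. The Kv4 gene Kcnd2 was not among the 82 names matched, so KChIP and Kv4 levels cannot be compared in full.

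Spread between brains was taken as the coefficient of variation (CV, SD over mean) of TMM-scaled CPM over the 9 libraries, whatever their genotype. For the 67 genes with a mean of at least 1 CPM the median CV was 18.6%, against 16.4% for 14249 annotated loci of that level. A CV under 15% was found in 22 of them, and a CV over 30% in 12.

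The steadiest genes were Kcnq5 (CV 6.29%), Kcnma1 (7.69%), Kcnj6 (8.06%) and Kcnn2 (8.96%). Kcnq5 was at 50.7, 48.1 and 44.1 CPM in the wild types (rats 1, 2 and 3 in turn, as in all such lists), at 44.4, 49.1 and 47.8 in heterozygotes and at 45.8, 53.3 and 46.1 in homozygotes. All 3 genotypes overlapped. By TPM in place of CPM these 4 genes had CVs of 27.3% to 30.7%, and the median over the 75 genes was 31.1%.

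Among the least steady genes were Kcng4 (42.0%), Kcnh6 (39.4%), Kcne2 (38.7%), Kcnj12 (36.6%) and Kcnh2 (36.01%). Kcng4, Kcnh6, Kcnj12 and Kcnh2 were lowest in wild-type rat 2, at 7.73, 1.04, 5.21 and 2.92 CPM. Kcne2, a beta subunit known from the choroid plexus, was instead highest there at 5.57 CPM, against 1.86 to 3.47 in the other 8 rats. The choroid plexus markers Ttr, Folr1 and Clic6 were also highest in that rat, at 459.9, 8.41 and 30.5 CPM, and their part in the Kcne2 value was not tested.

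Wild-type rat 2 was the lowest of the 9 libraries in 51 of the 75 genes (68.0%) on the TMM scale, and in 50% of 16576 annotated loci. The count depended on the scale: it was 16 genes (21.3%) by counts scaled to totals outside the mitochondrial loci and 17 (22.7%) by TPM. Of annotated loci, 10.1% and 14.7% in turn were lowest in that rat. By totals outside the mitochondrial loci, heterozygous rat 3 was lowest most often, in 28 genes (37.3%), and in 31.6% of annotated loci.

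4 genes rose with the cerebellar granule cell markers. A marker index (the mean of log2(CPM + 0.5) of Gabra6, Cbln3, Fat2 and Barhl1) was 1.08, 1.17 and 4.83 in wild-type rats 1 to 3, 3.19, 3.35 and 3.92 in heterozygotes, and 4.60, 0.23 and 4.25 in homozygotes. Barhl1 was at 0 in wild-type rat 2. Within genotypes, 4 of 74 genes tested rose with the index and none fell, by edgeR's quasi-likelihood test with Benjamini-Hochberg adjustment over 39057 loci, where 0.975% of all loci rose and 0.97% fell. At an unadjusted p under 0.05 there were 16 genes with a positive and 3 with a negative slope, 19 of 74 against 22.0% of all loci. The upward lean was shared by the 16576 annotated loci, of which 322 rose and 45 fell after adjustment. At the unadjusted threshold 3144 of these had a positive and 484 a negative slope.

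Kcng4, a silent modifier of Kv2 channels, was at 11.6, 7.73 and 30.3 CPM in wild types, at 17.2, 18.5 and 22.8 in heterozygotes and at 29.5, 11.3 and 24.1 in homozygotes. The locus spans positions 52269602 to 52282877 of chromosome 19 (rn6, minus strand). Its low values fell in the 3 rats with an index under 2, and its highest in wild-type rat 3. The slope was 0.36 log2 units per unit of the index (SE 0.05, adjusted p = 0.00338). Kcnk10, the two-pore channel TREK2, was at 3.91, 3.75 and 9.95 in wild types, at 6.37, 6.46 and 8.75 in heterozygotes and at 8.49, 4.35 and 9.66 in homozygotes, with a slope of 0.31 (SE 0.05, adjusted p = 0.00777). The same 3 rats were low.

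Kcnip4, a KChIP, was at 20.8, 20.6 and 43.5 CPM in wild types, at 22.4, 26.1 and 27.6 in heterozygotes and at 29.1, 21.7 and 35.0 in homozygotes (slope 0.20, SE 0.04, adjusted p = 0.0340). The rats of low index were again the 3 lowest. The 3 Purkinje cell markers measured (Pcp2, Calb1 and Car8) also rose with the index, so granule and Purkinje cell RNA cannot be told apart here.

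**Figure D2:**
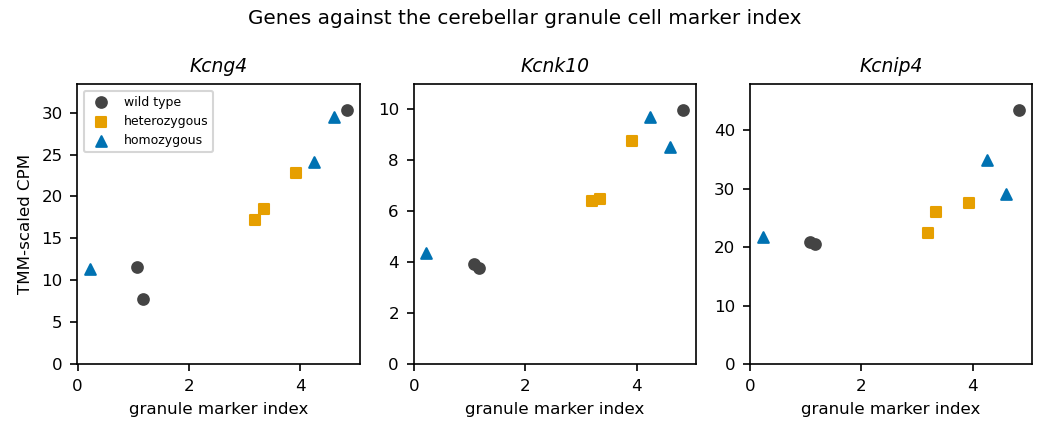
TMM-scaled CPM of Kcng4, Kcnk10 and Kcnip4 (y axis) against the granule marker index in log2 units (x axis), 1 point per rat, by genotype. The 3 rats with an index under 2 (wild-type rats 1 and 2 and homozygous rat 2) hold the lowest values of each gene.

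These calls rest on few rats. Without wild-type rat 3, none of the 74 genes passed (adjusted p = 0.196 for Kcng4, 0.3305 for Kcnk10 and 0.698 for Kcnip4), without heterozygous rat 3 only Kcng4 and Kcnk10 did, and without wild-type rat 2 there were 6. Over all loci tested, these settings called in turn 63 of 41618, 254 of 40764 and 915 of 40382. By limma on TPM 0 of the 74 passed, where 150 of 39057 loci did. With totals outside the mitochondrial loci 2 of the 74 did, Kcng4 among them, where 1445 of 39057 loci did. DESeq2 called 11 of the 74 genes, of which 10 rose, where it called 6.11% of all loci. The next genes in order of p were Kcnk3 (TASK1), with a slope of 0.26 (SE 0.06, adjusted p = 0.0531), and Kcnj12 (Kir2.2), with a slope of 0.28 (SE 0.06, adjusted p = 0.0537). Of the Kv1, Kv3 and Kv7 genes, 4 of 5, 4 of 4 and 0 of 4 had a positive slope, where 76.5% of annotated loci did. Kcng4 was the only one of the 9 silent modifiers with a positive slope.

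The 250 bases upstream of the annotated start are shown for Kcng4, the only one of the 4 genes with an entry in the RefSeq promoter table (GRCr8, 48 of the 75 genes matched), and for Kcnq5, the steadiest gene. Capitals mark CANNTG, the E-box letters, which read the same on both strands. Such a match stood in 65.5% of 33469 windows of this length and in 54.2% of the 48, so it is a description of these letters only. The Kcng4 window lies at chr19:64597889-64598138 and the Kcnq5 window at chr9:31891282-31891531, both on the minus strand and written 5′ to 3′.
Kcng4: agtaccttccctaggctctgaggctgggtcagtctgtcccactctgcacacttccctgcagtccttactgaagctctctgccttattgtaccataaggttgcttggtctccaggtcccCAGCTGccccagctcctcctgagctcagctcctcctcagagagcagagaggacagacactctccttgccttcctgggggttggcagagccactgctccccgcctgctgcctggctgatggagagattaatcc
Kcnq5: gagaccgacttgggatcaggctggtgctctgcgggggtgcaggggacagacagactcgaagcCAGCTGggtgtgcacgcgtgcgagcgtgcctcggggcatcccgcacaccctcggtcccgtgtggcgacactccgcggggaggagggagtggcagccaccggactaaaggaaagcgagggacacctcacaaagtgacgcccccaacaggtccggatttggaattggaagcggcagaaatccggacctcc
Each window held 1 match, and the windows had a GC content of 58.4% and 65.2%, against a median of 65.0% for the 48 genes and 51.2% for all windows.

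The main question of the design is whether expression differs between genotypes. No potassium channel gene passed the test between homozygous and wild-type rats (0 of 74, as 0.0% of all 39057 loci did). At an unadjusted p under 0.05 there were 11 genes, all higher in homozygotes, where 9.13% of all loci reached it. Kcne5, which entered only through mutant libraries, is 1 of the 11. On the TMM scale 63 of the 74 genes had a positive fold change, with a median log2 fold change of 0.23, against a median of 0.14 for annotated loci and -0.07 for all loci. The share with a positive fold change was 85.1%, against 71.4% of annotated loci and 44.3% of all loci. Kcne5 and Kcnj15, which entered only through mutant libraries, are among the 63.

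That direction belongs to the scale. With TMM over annotated loci alone, 43 of 74 were higher (median 0.07), with totals outside the mitochondrial loci 15 (median -0.30), and by TPM 8 (median -0.37). The median of annotated loci moved with them, to -0.01, -0.38 and -0.43, and lay under that of the potassium channel genes on each of these scales. Single rats also moved the values on the TMM scale. Without wild-type rat 2, 50 of 74 were higher (median 0.14), and without wild-type rat 3, 62 were (median 0.36). Annotated loci moved too. Without wild-type rat 2, 59.1% of them were higher (median 0.05), and without wild-type rat 3, 81.2% were (median 0.30). At an unadjusted p under 0.05 there were 27 genes without wild-type rat 3 (smallest adjusted p = 0.0894 by edgeR), against 6 without wild-type rat 2, 7 without homozygous rat 1 and 6 without homozygous rat 2. The share of all loci at that threshold was not taken in these settings, so the counts are no result about these genes. Over up to 21 alternatives per gene, 61 of the 74 genes took both signs, 7 were higher in homozygotes throughout and 6 were lower throughout. The 7 include Kcne5 and Kcnj15, which passed the count rule only through mutant libraries, so their direction is partly set by that rule.

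**Figure D3:**
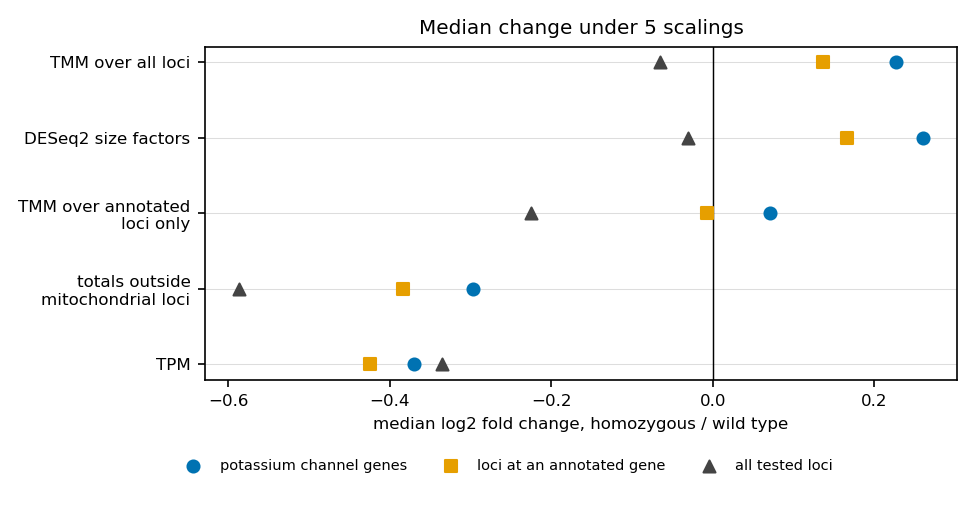
Median log2 fold change, homozygous over wild type (x axis), of the potassium channel genes, of loci at an annotated gene and of all tested loci under 5 scalings (y axis). The median of the potassium channel genes passes from 0.23 by TMM to -0.37 by TPM.

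By subfamily on the TMM scale, all 7 EAG, ERG and ELK genes had a positive fold change (median 0.49), as did 8 of 9 silent modifiers (0.23), 11 of 12 inward rectifiers (0.22), 9 of 11 two-pore genes (0.35) and 9 of 11 auxiliary genes (0.29). Most annotated loci did too (71.4%). Kcnj15, an inward rectifier, and Kcne5, an auxiliary gene, entered only through mutant libraries. Kv1 and Kv7 lay near 0, with medians of 0.07 and 0.03. The share of the summed TPM, which does not depend on the total of a library, put the EAG, ERG and ELK genes at 4.80% ± 0.505 in wild types, 5.18% ± 0.157 in heterozygotes and 5.83% ± 0.595 in homozygotes (SD, n = 3 each). Kv7 went from 9.72% ± 1.60 to 8.83% ± 0.571 and 8.34% ± 0.666, and Kcnma1 from 4.89% ± 0.932 to 4.05% ± 0.252 and 3.89% ± 0.238. Wild types and mutants overlapped in each of these shares. Wild-type rat 3 had the lowest Kv7 share of the 9 libraries (7.88%), and its Kcnma1 share (4.16%) lay under that of heterozygous rat 1 (4.34%). For the EAG, ERG and ELK genes, homozygous rat 3 (5.155%) lay under wild-type rat 1 (5.38%). These shares were not tested.

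**Figure D4:**
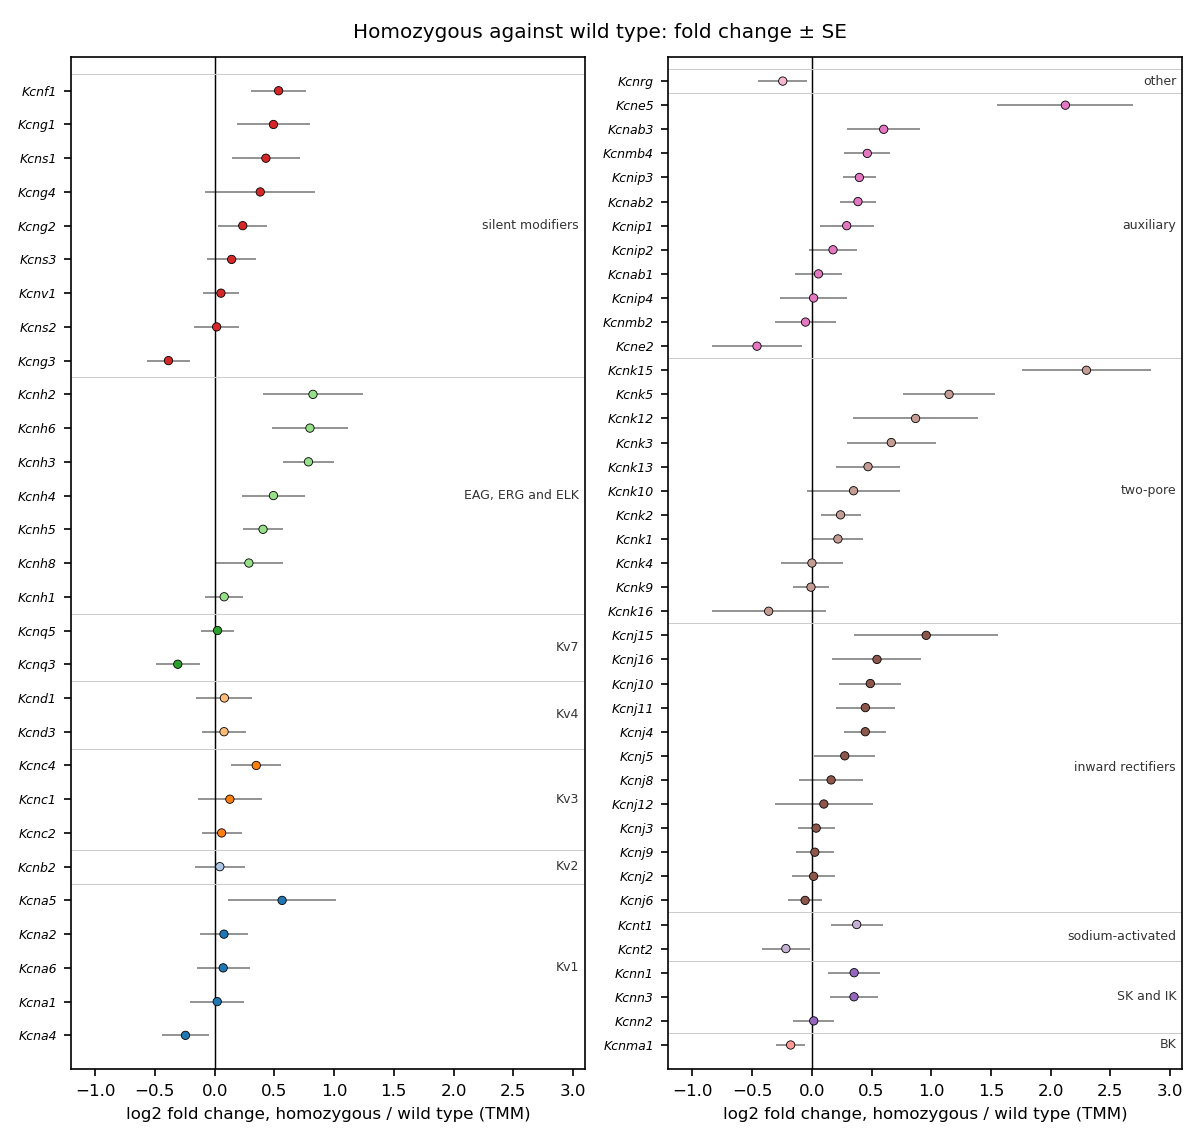
Log2 fold change with its standard error, homozygous over wild type by TMM-scaled edgeR (x axis), 1 point per gene drawn, grouped and coloured by subfamily. Kcnk15 and Kcne5 lie above 2 with wide errors, Kcne5 having entered only through mutant libraries, none passed the test, and on the TPM scale only 8 of the 74 lie above 0.

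In 9 of the 74 genes every homozygous library lay above every wild-type library, or 12.2% against 7.28% of all loci and 14.5% of annotated ones, and in 1 gene every one lay below (6.09% of all loci). By counts outside the mitochondrial loci the numbers were 2 above and 23 below, where 0.52% and 29.6% of all loci did so, and by TPM 1 above and 35 below, where 0.164% and 53.8% did so. The genes above include Kcne5 on each of the 3 scales, a direction partly set by how it entered. Kcnma1 was below on each.

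Kcnma1, the BK pore, was at 170.1, 175.3 and 167.3 CPM in wild types, at 160.3, 146.4 and 140.3 in heterozygotes and at 156.9, 148.9 and 147.6 in homozygotes. Both mutant groups lay below all wild types and overlapped each other. The locus spans positions 344453 to 1055245 of chromosome 15 (rn6, plus strand). The log2 fold change was -0.18 in homozygotes (SE 0.12, adjusted p = 0.608) and -0.20 in heterozygotes (SE 0.12, adjusted p = 0.981), both against the same wild types and neither past the test. Over the alternatives the former ran from -0.83 by TPM to -0.13 without homozygous rat 3.

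Kcnk15 (TASK5), a two-pore gene whose product carries no known current, had the smallest p. It was at 0.307, 0.0781 and 0.451 CPM in wild types, at 0.637, 1.86 and 1.29 in heterozygotes and at 0.840, 1.61 and 1.64 in homozygotes. All mutant libraries lay above all wild types. The log2 fold change was 2.30 in homozygotes (SE 0.54, adjusted p = 0.544) and 2.16 in heterozygotes (SE 0.54, adjusted p = 0.981). DESeq2 called it in homozygotes (adjusted p = 0.0479), where it called 0.0845% of all loci. Over all the alternatives of that comparison its log2 fold change ran from 0.35 by TPM to 2.86 without wild-type rat 3.

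The locus of Kcnk15 (rn6 chromosome 3, 160231914 to 160238254, plus strand) overlaps Rims4 on the minus strand. The opposite-strand loci held 1520.0 counts on average against 39.6 for Kcnk15. Rims4 itself was at 31.4 ± 5.49 CPM in wild types, 40.0 ± 2.85 in heterozygotes and 44.65 ± 1.16 in homozygotes (SD, n = 3 each), and its part in the Kcnk15 counts was not tested.

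Kcne5, an X-linked beta subunit, had 3 expected counts in each wild-type rat, 6, 13 and 11 in heterozygotes and 12, 9 and 14 in homozygotes. It passed the count rule only through mutant libraries, so its higher mutant counts are partly set by that rule and are given as a description. Kcnk5 (TASK2) was at 0.333, 0.182 and 0.451 CPM in wild types and at 0.663, 0.632 and 0.856 in homozygotes, without overlap (log2 fold change 1.15, SE 0.38, adjusted p = 0.544). Kcnk5 averaged 19.7 expected counts per library.

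Kcnh3, an ELK channel of forebrain neurons, was at 26.8, 16.5 and 27.1 CPM in wild types, at 25.5, 29.2 and 31.7 in heterozygotes and at 49.1, 40.2 and 32.1 in homozygotes. The homozygous values lay above all others. The locus spans positions 140788987 to 140910422 of chromosome 7 (rn6, plus strand). The log2 fold change was 0.79 against wild type (SE 0.22, adjusted p = 0.544) and 0.49 against heterozygotes (SE 0.22, adjusted p = 1), and 0.39 per deleted allele (SE 0.10, adjusted p = 0.444). By TPM the first was 0.01, with means of 4.37 ± 1.29 and 4.35 ± 0.899 TPM in wild types and homozygotes.

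Kcnh6, an ERG channel gene, was at 1.66, 1.04 and 1.75 CPM in wild types, 1.84, 3.78 and 3.81 in heterozygotes and 2.48, 2.83 and 2.44 in homozygotes. The heterozygous log2 fold change of 1.08 (SE 0.31, adjusted p = 0.981) was the larger and the homozygous one was 0.80 (SE 0.32, adjusted p = 0.544), which turned to -0.01 by TPM. Heterozygous rats 2 and 3 were the highest of all, and heterozygous rat 1 lay just above the wild types. The 3 pineal markers Tph1, Asmt and Aanat were also highest in rats 2 and 3 (Asmt at 1.09 and 1.45 CPM, against at most 0.132 elsewhere), and their summed level ran from 0.179 to 3.67 in wild types, 1.32 to 94.6 in heterozygotes and 0.281 to 6.80 in homozygotes. Without these 2 rats the heterozygous log2 fold change of Kcnh6 was 0.30, where the lone heterozygote is assumed to vary like the other groups. Since the 2 rats left out also held the highest Kcnh6 values, the value had to fall. The part of pineal RNA in the Kcnh6 value was not tested.

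The auxiliary genes Kcnip3 and Kcnab2 also kept both mutant groups above the wild types by CPM, and both were lower in homozygotes than in wild types by TPM. Kcnip3, also known as the calcium-binding protein DREAM, was at 32.8, 31.3 and 31.9 CPM in wild types, 40.0, 36.4 and 38.8 in heterozygotes and 47.4, 39.7 and 39.4 in homozygotes (log2 fold change in homozygotes 0.40, SE 0.14, adjusted p = 0.544, and -0.42 by TPM). Kcnab2 was at 164.6, 121.0 and 157.3, at 169.8, 176.7 and 192.3 and at 208.6, 192.4 and 178.1 CPM (0.39, SE 0.15, adjusted p = 0.544, and -0.46 by TPM). Wild-type rat 2 was the lowest rat for both.

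Kcnk13 (THIK1), a two-pore channel known from microglia, was at 1.12 ± 0.179 CPM in wild types and 1.56 ± 0.153 in homozygotes, and Kcnn3 (SK3) at 4.98 ± 0.673 and 6.35 ± 0.719 (SD, n = 3 each). Neither group pair overlapped, with log2 fold changes of 0.47 (SE 0.27, adjusted p = 0.555) and 0.35 (SE 0.20, adjusted p = 0.553), which turned to -0.13 and -0.30 by TPM. On the TMM scale all 4 microglial markers had a positive fold change in homozygotes (median 0.41, none called), as did 71.4% of annotated loci. The 4 neuronal and 4 oligodendrocyte markers were also all higher, and the 3 choroid plexus and 3 blood markers all lower. The summed microglial level was 58.7 to 77.5 CPM in wild types and 79.2 to 89.2 in homozygotes. By TPM all 4 microglial markers had lower means in homozygotes, Cx3cr1 going from 5.56 to 4.47 and P2ry12 from 2.74 to 1.72. By CPM the homozygous values of Cx3cr1 (9.76 ± 2.19 and 13.7 ± 0.669) and Tmem119 (2.55 ± 0.476 and 4.13 ± 0.526) lay above all wild types. P2ry12 and Csf1r overlapped. The part of these markers in the Kcnk13 value was not tested.

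**Figure D5:**
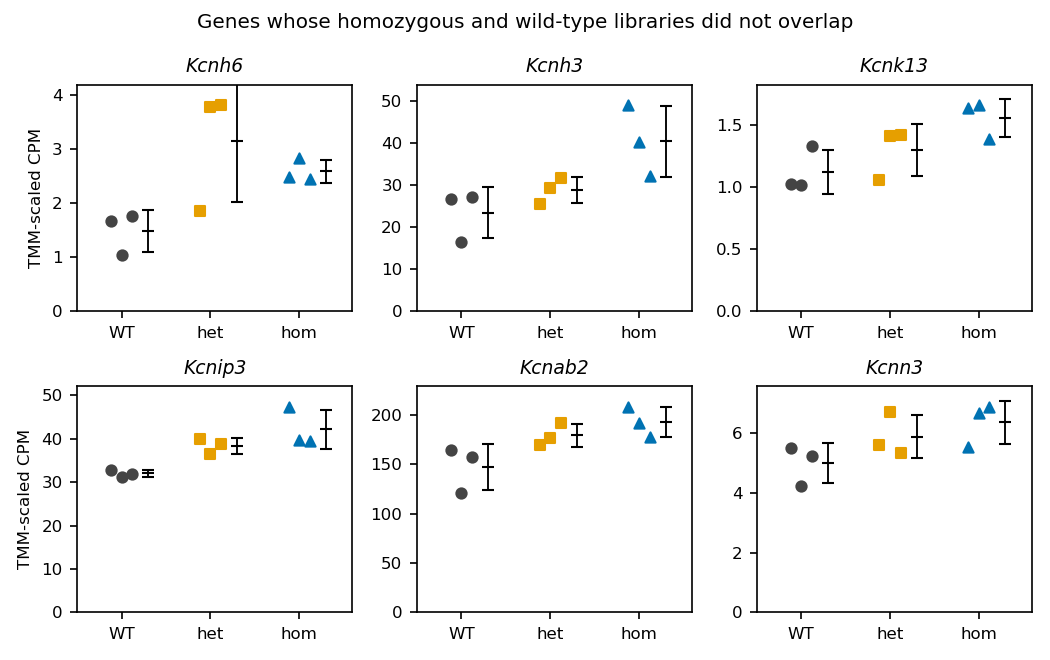
TMM-scaled CPM (y axis) of the 6 genes of at least 1 CPM with the largest fold change whose homozygous and wild-type libraries did not overlap, 1 point per rat, with the mean ± SD of 3 rats beside each group. All 6 lie higher in homozygotes on this scale, and Kcnh6, Kcnk13, Kcnip3, Kcnab2 and Kcnn3 turn lower by TPM.

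Between heterozygous and wild-type rats, 0 of 74 genes passed (0.00768% of all loci did) and 3 had an unadjusted p under 0.05, where 3.73% of all loci did. These were Kcnk15, Kcnh6 and Kcne5, all higher in heterozygotes, Kcne5 having entered only through mutant libraries. Without wild-type rat 3 there were 15 (smallest adjusted p = 0.2303 by edgeR), where the share of all loci was not taken. Heterozygous rats 2 and 3, whose pineal markers were high, were also left out together, which keeps 1 heterozygote. The log2 fold change of Kcnk15, whose highest heterozygous values were in those rats, was then 1.16. In 7 genes, Kcne5 among them, all heterozygotes lay above all wild types and in 1, Kcnma1, below, where 2.69% and 3.8% of all loci did so. This comparison shares its wild types with the homozygous one.

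Between homozygous and heterozygous rats, 0 of 74 genes passed (0.00256% of all loci did) and 2 had an unadjusted p under 0.05, where 1.71% of all loci did. The 2 were Kcnh3 and Kcnmb4, the BK beta subunit of neurons, at 9.12, 9.62 and 11.5 CPM in heterozygotes and 14.9, 15.7 and 10.8 in homozygotes (log2 fold change 0.45, SE 0.19, adjusted p = 1). Homozygous rat 3 overlapped the heterozygotes. In 4 genes, Kcnh3, Kcnk5, Kcna5 and Kcnj4, all homozygotes lay above all heterozygotes and in 0 below, where 4.71% and 4.12% of all loci did so. Kcnj4 (Kir2.3) was at 38.0, 41.8 and 42.5 CPM in heterozygotes and 54.9, 55.1 and 45.7 in homozygotes (log2 fold change 0.35, SE 0.18, adjusted p = 1), a difference that vanished (-0.0004) with totals outside the mitochondrial loci.

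The other genes of small p in that comparison were Kcnh4 (ELK1), with a log2 fold change of 0.49 (SE 0.26, adjusted p = 1), and Kcnv1, a silent modifier, with 0.22 (SE 0.15, adjusted p = 1). Kcnv1 turned lower in homozygotes by TPM (-0.08) and with totals outside the mitochondrial loci (-0.10). Kcnk5 had 0.59 (SE 0.36, adjusted p = 1).

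The order of genotype means rose with the deleted alleles in 40 of 74 genes (54.1%) and fell in 4, where 24.5% and 29.1% of all loci did so and 46.0% and 11.9% of annotated ones. The 4 were Kcnq3, Kcnj6, Kcne2 and Kcng3. For the slope per deleted allele 0 of 74 genes passed by edgeR (0.0% of all loci) and 11 had an unadjusted p under 0.05, 10 rising and 1, Kcng3, falling, against 10.9% of all loci. Kcne5 is 1 of the 10, and the 11 became 25 without wild-type rat 3 and 6 when homozygous rat 1 was left out. The share of all loci was not taken in those settings. By limma on TPM, 5 genes passed and all fell: Kcnq3, Kcnma1, Kcng3, Kcnj6 and Kcnt2, with slopes of -0.45, -0.42, -0.33, -0.35 and -0.35. That test called 20.3% of all loci, so 5 of 74 is no more than its background.

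No ethanol-sensitive channel gene was called in a genotype comparison by edgeR. By limma on TPM, Kcnma1 and Kcnj6 fell with the deleted alleles (adjusted p = 0.0417 and 0.0488), 2 of the 5 genes given above against that test's background of 20.3%. Of 12 genes on that list (BK and its beta subunits, GIRK and SK), 10 were measured. In homozygotes 7 of the 10 had a positive fold change, with a median of 0.03, where 71.4% of annotated loci did, and 1 (Kcnmb4) had an unadjusted p under 0.05. Against heterozygotes 7 of 10 were higher (median 0.04), and in heterozygotes against wild type 5 of 10 (median 0.00), where 69.5% and 64.8% of annotated loci were.

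The GIRK subunits of neurons lay near a fold change of 0 on the TMM scale. Kcnj6 was at 65.4, 64.7 and 55.4 CPM in wild types, 65.4, 60.5 and 54.1 in heterozygotes and 65.4, 57.4 and 55.7 in homozygotes, with all groups overlapping (log2 fold change in homozygotes -0.06, SE 0.14, adjusted p = 0.899). Kcnj3 had a log2 fold change of 0.04 (SE 0.15, adjusted p = 0.942) and Kcnj9 of 0.03 (SE 0.16, adjusted p = 0.961). Among SK genes, Kcnn2 was at 9.77, 12.3 and 9.95, at 9.67, 10.7 and 10.9 and at 11.0, 9.73 and 11.7 CPM (0.02, SE 0.17, adjusted p = 0.977). An adjusted p above the threshold does not show that these genes did not differ, and all 4 were lower in homozygotes by TPM.

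Genes whose products bind or place these channels gave a similar picture. Of 26 listed partners 23 were measured, among them Dpp6 and Dpp10 (Kv4 subunits), Cntnap2, Cntn2 and Adam22 (Kv1 at the axon), Abcc8 and Abcc9 (partners of the ATP-sensitive channels) and Calm2 (calmodulin). None was called in any genotype comparison or on the marker index. In homozygotes 19 of 23 had a positive fold change on the TMM scale (median 0.11), where 71.4% of annotated loci did. An unadjusted p under 0.05 was found in 2, where 9.13% of all loci reached it. Dlg4, a scaffold of the synapse, was among the 2 with 0.39 (SE 0.15, adjusted p = 0.544). On the marker index 21 of 23 slopes were positive, where 76.5% of annotated loci had a positive slope. An unadjusted p under 0.05 was found in 8, led by Adam23 at 0.17 (SE 0.04, adjusted p = 0.0626), where 22.0% of all loci reached it.

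Isoform shares are given as the percent that each assembled isoform takes of its gene. Of the 75 genes, 25 were assembled as 1 isoform and 50 as several, with 238 isoforms in all and at most 14 for 1 gene, Kcnk1. Over the 50 genes the main isoform held a median of 62.7%, and it was the same in all 9 libraries in 32. It held over 90% in 8 genes, among them Kcnk9 at 97.7% and Kcnn2 at 92.1%, and under 50% in 12.

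Kcnma1, whose transcripts are known to be spliced heavily, had 9 isoforms, and its main one held 27.5%, ranging from 21.5% to 32.0%, and led in 4 libraries. Kcnip4 had 2, with 90.01% in the main one.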

How the data were processed

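Whole-brain RNA of 9 rats, 3 per genotype, was sequenced as paired reads from stranded libraries depleted of ribosomal RNA, per the labels' protocols. The submitters' processing notes name cutadapt, HISAT2, StringTie, RSEM and the build rn6, while versions are left unstated in the sources used here. Deposited values are expected counts per assembled locus in 1 table, and TPM per locus and the percent of each isoform in a file per library. The table and the own files differed at 0 loci, and 99 spike-in loci were only in the own files. Totals ran from 27489383 to 46975919 expected counts.

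Expected counts were rounded and tested with edgeR 4.0.16 (R 4.3.3) by quasi-likelihood over 39057 loci that passed its expression filter, 74 of them potassium channel genes (Kcnn4 did not pass), with TMM scaling and Benjamini-Hochberg adjustment at 0.05. All 9 libraries entered each fit, with genotype, deleted alleles as a number, or genotype and the granule marker index as terms. DESeq2 1.42.0, limma 3.58.1 on log2(TPM + 0.5), other scalings and filters, and leaving out each rat in turn were alternatives, and heterozygous rats 2 and 3 were left out together after seeing the data. P-values weigh each term against the spread between rats that the fit leaves. In the genotype fits that is the spread within groups. For the slope per deleted allele it is the spread about a line over the genotypes. For the marker index it is the spread about a slope within genotypes.

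Genes were named by rule: the highest of each subfamily and the 3 highest; called genes, or the 6 of smallest p, in each comparison; the 6 largest and 4 smallest CVs; the 6 largest fold changes without overlap of homozygous and wild-type libraries; and those at the count filter. Genes beside them were chosen after their values were seen. Members and lists were chosen with earlier results of these data known, and some genes are not reported here, nor drawn in the figures. The sources used here do not give whether counting used the strand: 49 genes overlap a locus on the opposite strand, and for 12 those loci held at least 10% of the gene's count. Promoter windows come from RefSeq (GRCr8).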

Additional observations from a re-analysis of the deposited data

How the results depend on the processing

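No genotype comparison gained a called gene under the alternatives, except Kcnk15 by DESeq2 in homozygotes (1 gene) and 5 genes by TPM for the slope per deleted allele. On the granule marker index the count of 4 became 2 with totals outside the mitochondrial loci, 11 by DESeq2, 0 by TPM and 0 with the replicate block, and 0 to 6 when each rat was left out. Over all loci the main fit called 760 of 39057, and those settings called 1445, 2388, 150 and 36 in turn. Leaving out each rat called 63 to 1033 loci. The rat numbers are not said to pair animals, and correlations of same-numbered rats ran from -0.1758 to 0.4009, so the block shares only a number. Genes lowest in wild-type rat 2 numbered 16 and 17 on the scales chosen after seeing the data. By TPM, homozygotes against wild types turned to -0.46 for Kcnab2, -0.42 for Kcnip3, -0.0086 for Kcnh6, -0.13 for Kcnk13 and -0.30 for Kcnn3, the slope per allele to -0.23 for Kcnab2 and -0.21 for Kcnip3, heterozygotes to -0.13 for Kcnab2 and -0.15 for Kcnip3, and Kcnv1 in homozygotes against heterozygotes to -0.084. With totals outside the mitochondrial loci the first comparison gave -0.13 for Kcnab2, -0.14 for Kcnip3, -0.0422 for Kcnk13 and -0.15 for Kcnn3, the slope -0.0628 for Kcnab2 and -0.0697 for Kcnip3, and homozygotes against heterozygotes -0.0004 for Kcnj4 and -0.10 for Kcnv1. The cause was not tested. Of 679 alternative values of 33 named results, 632 kept direction and side of the threshold, 22 lost it, 7 gained it and 18 reversed. No named genotype result was called in the main fit, so keeping its side of the threshold was largely set in advance. Many alternatives also only leave out a rat or change the filter. The 632 thus does not measure how stable the fold changes are. Genes of few counts, such as Kcne5, have wide errors at this depth.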
